A study of Mus musculus with 12 samples.

Results

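The matrix proteases, their inhibitors and the cell-surface plasminogen system are described here through 9 genes chosen by name from the 26608 gene rows of each count file. The members are the matrix metalloproteinase genes Mmp12, Mmp13, Mmp14 and Mmp19, the membrane protease gene Adam8, the metalloproteinase inhibitor genes Timp1 and Timp2, and the urokinase and urokinase receptor genes Plau and Plaur. RNA was sequenced from sorted mouse lung cells, about 250 per library, in 12 libraries that form 4 groups of 3. The groups were interstitial macrophages (IM) of Cx3cr1cre;Hif1a deleted animals, IM of control animals, nonclassical monocytes (NCM) of deleted animals and NCM of control animals. Deleted animals carried Cre driven from Cx3cr1, a chemokine receptor gene of monocytes and macrophages, together with floxed Hif1a, the gene of the HIF-1 subunit that is degraded when oxygen is plentiful. Control animals carried floxed Hif1a and no Cre, so the Cre driver and the loss of Hif1a cannot be told apart. Every animal was on the C57Bl/6 background and had spent 3 weeks in hypoxia with a weekly dose of SU5416, an inhibitor of VEGF receptors, a regimen used to produce pulmonary hypertension in rodents. No group without this exposure was analysed here, and ages are not given in the labels. Libraries are called by the names in their labels, IM649, IM650 and IM661 (IM deleted), IM648, IM659 and IM660 (IM control), RM649, RM650 and RM661 (NCM deleted), and RM648, RM657 and RM659 (NCM control). The labels do not say that numbers mark separate animals, so p-values measure the spread between these libraries, which may in part be technical.

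Matrix metalloproteinases are zinc enzymes that are made as inactive proforms and cut collagen, elastin and other matrix proteins once activated. Tissue inhibitors of metalloproteinases (TIMPs) bind and block the active enzymes, and TIMP2 also bridges proMMP2 to the membrane enzyme MMP14 during activation of proMMP2. Urokinase, bound to its receptor at the cell surface, cuts plasminogen to plasmin, which degrades fibrin and can activate several metalloproteinase proforms. In lung, macrophages are a known source of MMP12, the macrophage elastase.

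Promoters are shown for the members on which the comparisons turn: Mmp13 and Mmp12, which are neighbours on chromosome 9, Mmp14 and Timp2, an enzyme and an inhibitor that act together on proMMP2, and Plaur, which passed the test between cell types in neither genotype. Each window runs from 250 bases before to 50 bases after a gene start in RefSeq on build GRCm38.p6, 5′ to 3′ on the gene's strand. RefSeq windows were matched for 7 of the 9 members. Mmp19 and Plau had no window, so their promoters were not searched for either motif. Capitals mark the letters TGANTCA, an AP-1 motif that reads the same on both strands, and the core HIF motif ACGTG or GCGTG on either strand. The windows lie at chr9:7272264-7272563 (Mmp13, plus strand), chr9:7347124-7347423 (the second of 2 Mmp12 starts, plus strand), chr7:24462233-24462532 (Plaur, plus strand), chr14:54431348-54431647 (Mmp14, plus strand) and chr11:118355362-118355661 (Timp2, minus strand).
Mmp13: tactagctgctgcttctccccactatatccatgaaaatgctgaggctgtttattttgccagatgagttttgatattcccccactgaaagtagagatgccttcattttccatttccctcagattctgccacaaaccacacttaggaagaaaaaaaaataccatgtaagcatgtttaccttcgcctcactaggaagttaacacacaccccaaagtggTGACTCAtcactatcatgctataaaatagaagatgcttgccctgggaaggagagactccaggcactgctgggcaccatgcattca
Mmp12: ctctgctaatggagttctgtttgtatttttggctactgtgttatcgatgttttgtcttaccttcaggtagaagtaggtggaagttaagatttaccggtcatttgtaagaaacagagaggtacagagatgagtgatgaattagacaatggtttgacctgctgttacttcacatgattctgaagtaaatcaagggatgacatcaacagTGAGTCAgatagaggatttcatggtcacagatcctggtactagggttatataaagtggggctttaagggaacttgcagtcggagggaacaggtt
Plaur: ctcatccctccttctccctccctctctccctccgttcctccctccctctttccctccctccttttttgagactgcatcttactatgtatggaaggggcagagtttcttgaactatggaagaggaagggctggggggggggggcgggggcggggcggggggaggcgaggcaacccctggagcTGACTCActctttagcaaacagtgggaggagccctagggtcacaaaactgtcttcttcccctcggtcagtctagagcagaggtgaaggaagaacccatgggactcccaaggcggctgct
Mmp14: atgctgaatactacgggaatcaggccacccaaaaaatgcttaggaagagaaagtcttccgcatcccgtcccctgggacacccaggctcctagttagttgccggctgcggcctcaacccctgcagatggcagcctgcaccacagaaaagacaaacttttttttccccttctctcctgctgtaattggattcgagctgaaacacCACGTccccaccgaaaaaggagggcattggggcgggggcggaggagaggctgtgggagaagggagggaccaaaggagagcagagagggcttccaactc
Timp2: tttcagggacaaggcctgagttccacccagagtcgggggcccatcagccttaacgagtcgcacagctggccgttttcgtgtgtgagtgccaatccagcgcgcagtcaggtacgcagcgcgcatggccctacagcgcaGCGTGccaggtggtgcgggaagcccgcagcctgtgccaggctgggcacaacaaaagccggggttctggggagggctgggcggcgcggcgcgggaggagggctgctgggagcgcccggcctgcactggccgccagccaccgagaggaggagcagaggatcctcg
The AP-1 letters begin 35 bases before the start in Mmp13, 44 in Mmp12 and 69 in Plaur, and 7.81% of the 32851 RefSeq windows hold them. The HIF letters begin 48 bases before the start in Mmp14 and 113 in Timp2. They are also found at 206 and 82 bases in Timp1, and 43.8% of all windows hold them. The first Mmp12 window and the Adam8 window hold neither motif. A match describes these letters and does not show a bound factor.

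Depth ranged from 5332600 to 14099509 gene counts per library, and levels are CPM (counts scaled to a fixed library total) with TMM-scaled library sizes, as mean ± SD of 3 libraries. Hif1a stood at 199 ± 6.50 CPM in IM deleted and 228 ± 15.6 in IM control, and at 172 ± 34.8 in NCM deleted and 225 ± 19.6 in NCM control, and passed the test in neither cell type. Counts of a whole gene do not measure the excision of floxed exons. Of the defining markers, C1qa, a complement gene of tissue macrophages, had 433 ± 166 CPM in IM deleted and 876 ± 68.5 in IM control, against 12.1 ± 10.7 in NCM deleted and 65.4 ± 50.5 in NCM control. Treml4, a marker of nonclassical monocytes, had 3.71 ± 2.33 CPM in IM deleted and 3.75 ± 2.83 in IM control, against 209 ± 116 in NCM deleted and 323 ± 85.5 in NCM control. Ace and Spn, from the nonclassical monocyte list, were also higher in every NCM library than in any IM library. Cebpb, from that list, did not set the deleted groups apart, with 300 ± 95.0 CPM in IM deleted and 273 ± 96.7 in NCM deleted. In control animals Cebpb had 439 ± 31.1 CPM in IM and 862 ± 156 in NCM. Nr4a1 ranged from 386 to 972 CPM in IM deleted and from 541 to 1376 in NCM deleted, which overlap. Lyve1, from the interstitial macrophage list, did not set the cell types apart, with 195 ± 110.1 CPM in IM deleted and 179 ± 69.5 in IM control, against 259.8 ± 94.3 in NCM deleted and 212 ± 174 in NCM control. Reads outside exons made up 59.2 to 69.8% of gene plus non-exonic reads in IM deleted and 38.5 to 44.2% in IM control, and 55.1 to 72.7% in NCM deleted and 58.1 to 66.8% in NCM control. Markers of endothelial cells, which line vessels, summed to 3053 to 7349 CPM in NCM deleted and 693 to 2354 in NCM control, with RM661 highest, and all 16 of them had counts in every library of both groups. Classical monocyte markers summed to 407 to 1061 CPM in IM deleted and 760 to 995 in IM control. In NCM deleted they summed to 50.7 to 147 CPM and in NCM control to 44.4 to 358. Alveolar macrophage markers summed to 191 to 554 CPM in IM deleted and 495 to 542 in IM control. In NCM deleted they summed to 182 to 506 CPM and in NCM control to 236 to 331. Their part in the differences between cell types was not tested. IM and NCM libraries ran on different sequencing lanes, so lane and cell type cannot be told apart.

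Plau, Mmp13 and Mmp14 were higher in interstitial macrophages than in nonclassical monocytes in both genotypes. In control animals Plau was 18.9-fold, Mmp13 15.5-fold and Mmp14 13.1-fold higher in IM. In deleted animals these 3 genes and Adam8 passed the test, with Plau 17.2-fold, Adam8 11.4-fold and Mmp14 5.15-fold higher in IM, and Mmp13 at 147 ± 68.8 CPM in IM against 1.21 ± 2.101 in NCM. The receptor gene Plaur passed the test in neither genotype. In bulk RNA of this kind, fewer cells of a type and less RNA per cell cannot be told apart.

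**Figure D1:**
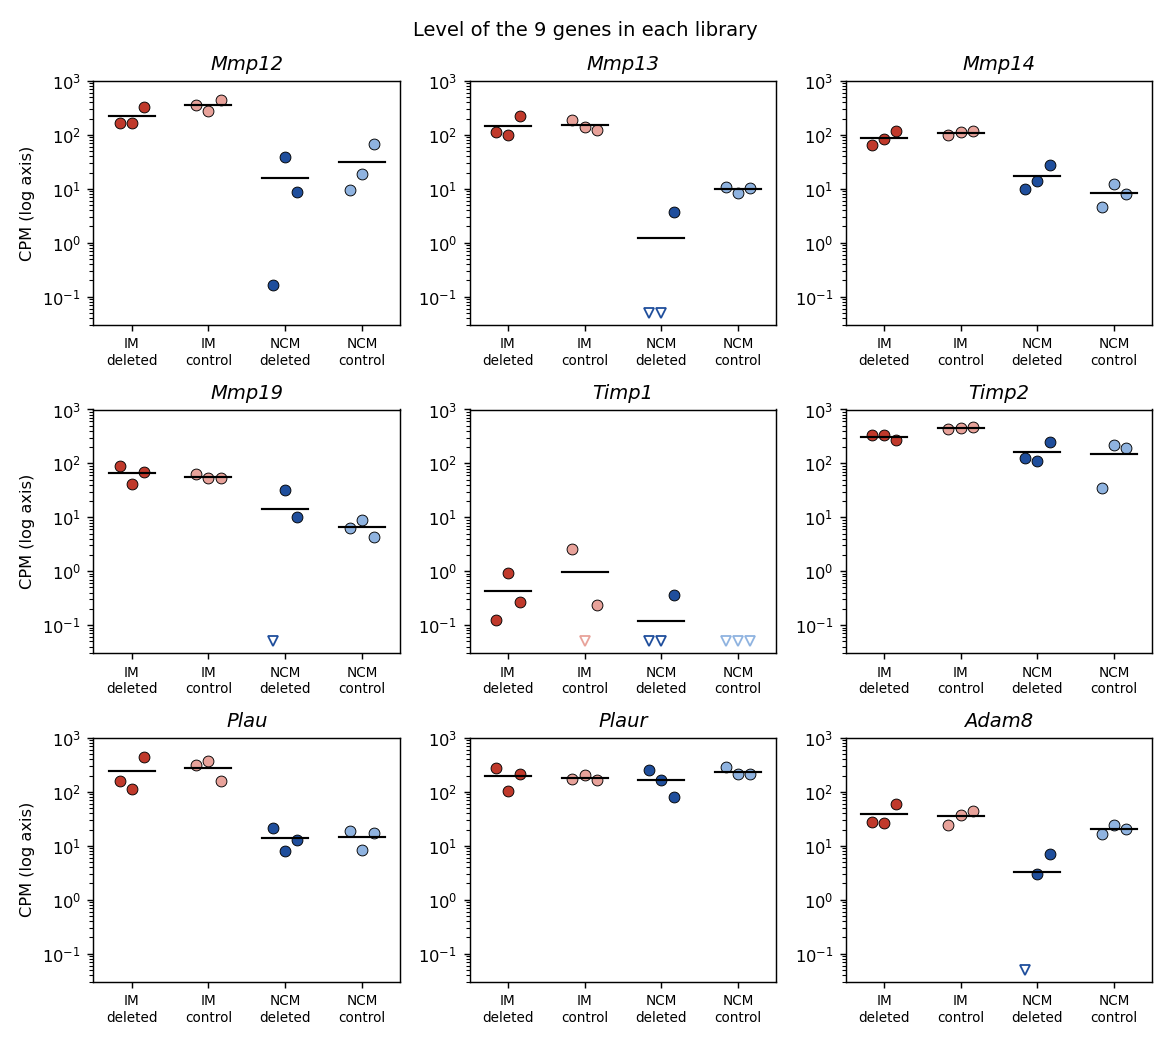
CPM of the 9 members in each of the 12 libraries, on a log axis, with 1 panel per gene. Points are libraries, bars are group means and open triangles at the foot mark libraries with 0 counts. All IM libraries lie above all NCM libraries for Mmp12, Mmp13, Mmp14, Mmp19, Timp2, Plau and Adam8, whereas the groups mix for Plaur, and Timp1 lies near 0 throughout.

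Of the 9 members, 8 passed the expression filter (edgeR's filterByExpr with a minimum count of 10, which kept 14254 genes), and Timp1 did not. A member could pass that filter through its level in IM alone, and the members were chosen with earlier results of these data known. The counts and medians therefore describe the members and are no test of them. By edgeR's quasi-likelihood test with Benjamini-Hochberg adjustment over all genes tested and a threshold of 0.05, 3 of 8 members were higher and 0 lower in IM control than in NCM control, where 2.81% of all genes tested were higher and 4.67% lower (7.48% in either direction). The unadjusted p was under 0.05 for 6 of 8, against 20.1% of all genes. In IM deleted against NCM deleted, 4 of 8 were higher and 0 lower, where 3.22% of all genes were higher and 1.35% lower (4.57% in either direction). Here too 6 of 8 had an unadjusted p under 0.05, against 15.4% of all genes. The members' median log2 fold change was 3.29 in control and 2.94 in deleted animals, beside 0.06 and 0.14 over all genes tested. The IM and NCM libraries did not overlap for all 8 tested members in control animals, with 7 higher in IM and Plaur lower, and 18.6% of all genes were higher and 17.2% lower in that way. In deleted animals 7 were higher without overlap, against 16.0% of all genes (6.25% were lower), and Plaur overlapped.

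Non-exonic shares did not overlap between IM control and NCM control, and with that share as a covariate 0 of 8 members passed (edgeR), with log2 differences of 3.48 for Plau (adjusted p = 0.293), 2.40 for Mmp14 (adjusted p = 0.164) and 0.94 for Mmp13 (adjusted p = 0.883). The shares overlapped between IM deleted and NCM deleted, and there 4 of 8 still passed with the covariate.

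Mmp13 encodes collagenase-3, which cuts fibrillar collagens (Ensembl ENSMUSG00000050578.10, chr9:7272514-7283331, plus strand). Its libraries stood at 115, 100.3 and 226 CPM in IM deleted and at 190.1, 142 and 125 CPM in IM control. NCM deleted libraries had 0, 0 and 3.64 CPM and NCM control libraries 10.9, 8.44 and 10.2 CPM. Each IM library thus held more than any NCM library, and 2 of the 3 NCM deleted libraries had no count. The log2 difference was 6.72 ± 0.95 (SE) between IM deleted and NCM deleted (edgeR adjusted p = 0.000770) and 3.95 ± 0.82 between IM control and NCM control (adjusted p = 0.00820). With 2 of the 3 NCM deleted libraries at 0, the size of the first is poorly fixed, and it ran from 6.18 to 13.37 on leaving out 1 library, the highest without RM661. The call in control animals was lost with no filter (log2 4.01, edgeR adjusted p = 0.0616) and with replicate numbers as a block (log2 3.96, adjusted p = 0.0707). It was also lost with the non-exonic share, and the adjusted p ranged from 3.23e-05 to 0.883 over 18 alternatives.

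Mmp12 encodes the macrophage elastase (ENSMUSG00000049723.14, chr9:7344381-7369499, plus strand) and had the highest mean CPM per kilobase of the 5 metalloprotease members in each IM group, within its SD of Mmp13 in IM deleted. Its values were 169.5, 165 and 334 CPM in IM deleted and 357, 272 and 439.9 CPM in IM control, so that IM661 alone of the deleted libraries reached the control range. NCM deleted libraries spread from 0.165 in RM649 through 8.79 in RM661 to 38.6 CPM in RM650, and NCM control libraries had 9.44, 18.8 and 67.0 CPM. The cell types did not overlap, and neither difference passed the threshold, with log2 differences of 3.81 ± 1.02 in deleted animals (edgeR adjusted p = 0.0502) and 3.49 ± 1.004 in control animals (adjusted p = 0.0503). Under DESeq2 both were past it, with adjusted p = 0.0229 in deleted and 0.0259 in control animals; over all 18 alternatives of each the adjusted p ranged from 0.0174 to 0.284 and from 0.00730 to 0.720. Mmp12 shares 157 exon bases with Mmp1b on the opposite strand, and whether counting used strand is not given in the sources used here. Mmp1b itself had 107 counts in IM deleted, 39 in IM control and 0 in both NCM groups.

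Mmp14 encodes a membrane-anchored collagenase that activates proMMP2 (ENSMUSG00000000957.11, chr14:54431612-54445364, plus strand). IM deleted libraries had 66.2, 85.3 and 117 CPM and IM control libraries 99.5, 113 and 117 CPM. NCM deleted libraries had 9.90, 14.1 and 27.8 CPM and NCM control libraries 4.57, 12.4 and 8.13 CPM, all lower than in any IM library. The log2 difference between the cell types was 2.36 ± 0.45 in deleted animals (edgeR adjusted p = 0.00488) and 3.71 ± 0.47 in control animals (adjusted p = 0.000355). Each passed under 17 of 18 alternatives. The call in deleted animals was lost with only the 6 libraries compared (log2 2.32, edgeR adjusted p = 0.0514), and that in control animals with the non-exonic share.

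Mmp19, the gene of a secreted metalloproteinase (ENSMUSG00000025355.7, chr10:128790910-128800824, plus strand), was the least abundant of the 4 metalloproteinase members per kilobase in IM. IM deleted libraries held 88.7, 41.7 and 69.0 CPM and IM control libraries 63.0, 52.8 and 53.2 CPM. The NCM deleted libraries ranged from 0 in RM649 to 32.5 CPM in RM650, with 9.94 CPM in RM661, and NCM control libraries held 6.34, 9.05 and 4.25 CPM. The cell types did not overlap, yet neither difference passed the test, at log2 2.23 ± 0.97 in deleted animals (edgeR adjusted p = 0.274) and 3.10 ± 1.01 in control animals (adjusted p = 0.0805). The control difference passed under 4 of 18 alternatives (DESeq2, adjusted p = 0.00733; only the 6 libraries compared, 0.000573; without RM649, 0.00107; without RM650, 0.0490), with adjusted p up to 0.681. Mmp19 shares 789 of its 3533 exon bases with Tmem198b on the opposite strand, and how reads on those bases were counted is not known.

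Adam8 encodes a membrane metalloprotease-disintegrin of leukocytes that sheds cell-surface proteins (ENSMUSG00000025473.16, chr7:139978932-139992562, minus strand). It had 28.0, 26.4 and 60.6 CPM in IM deleted and 24.7, 37.9 and 44.3 CPM in IM control. NCM deleted libraries had 0, 2.94 and 6.92 CPM, less than the 16.5, 23.9 and 20.6 CPM of NCM control. The log2 difference between IM and NCM was 3.51 ± 0.91 in deleted animals (edgeR adjusted p = 0.0373) and 0.81 ± 0.82 in control animals (adjusted p = 0.687, 95% interval -0.80 to 2.42). The test of the difference between these 2 contrasts did not pass (log2 2.70 ± 1.18, adjusted p = 0.549). The call in deleted animals was lost on leaving out any 1 of IM648, IM659, IM660, IM649, IM650, IM661, RM657 and RM650. The edgeR adjusted p was then between 0.0540 and 0.184. The call was also lost with only the 6 libraries compared (log2 3.48, edgeR adjusted p = 0.248), and it passed under 9 of 18 alternatives. Adam8 shares 46 exon bases with Gm16201 on the opposite strand.

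Of the 2 inhibitor members, Timp2 had the higher level per kilobase in all 4 groups and Timp1 had few or no reads. Timp2 (ENSMUSG00000017466.9, chr11:118301069-118355740, minus strand) stood at 335, 329.6 and 272 CPM in IM deleted and 432, 457 and 464 CPM in IM control. NCM deleted libraries had 128, 113 and 248 CPM, and NCM control libraries had 35.4 in RM648, 219 in RM657 and 191 CPM in RM659. IM libraries lay above NCM libraries in both genotypes, by a log2 difference of 0.94 ± 0.47 in deleted animals (edgeR adjusted p = 0.367) and 1.60 ± 0.48 in control animals (adjusted p = 0.0574), neither past the threshold. The control difference passed under 3 of 18 alternatives (DESeq2, adjusted p = 0.00897; edgeR with RLE factors, 0.0472; edgeR without RM661, 0.0480). Over all 18 the adjusted p ranged up to 0.914.

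Timp1, a secreted inhibitor that many cells raise on injury (ENSMUSG00000001131.11, chrX:20870166-20874735, plus strand, within Syn1 with no shared exon base), had 1, 7 and 2 reads in IM deleted and 36, 0 and 3 reads in IM control. It had 0, 0 and 4 reads in NCM deleted and none in NCM control, where 3 counts, the limit that a count of 0 allows, correspond to 0.364 to 0.443 CPM per library. A single library, IM648, thus held most of the reads of this gene, and no test was run on it.

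Of the plasminogen system, Plau passed the test between cell types in both genotypes and Plaur in neither. Plau, the urokinase gene (ENSMUSG00000021822.3, chr14:20836660-20843385, plus strand), had 161, 112 and 446 CPM in IM deleted and 311, 367 and 158 CPM in IM control. NCM deleted libraries had 20.95, 7.93 and 12.96 CPM and NCM control libraries 18.7, 8.44 and 16.98 CPM, so the lowest IM library lay above the highest NCM library. The log2 difference was 4.11 ± 0.57 in deleted animals (edgeR adjusted p = 0.000586) and 4.24 ± 0.57 in control animals (adjusted p = 0.000529).

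Plaur, which encodes the membrane-anchored urokinase receptor (ENSMUSG00000046223.10, chr7:24462484-24475968, plus strand), had 276, 104 and 211 CPM in IM deleted and 174, 203 and 167 CPM in IM control. It had 252, 164 and 80.1 CPM in NCM deleted and 286, 211 and 216 CPM in NCM control. The log2 difference between IM and NCM was 0.25 ± 0.38 in deleted animals (95% interval -0.49 to 0.99, edgeR adjusted p = 0.837) and -0.39 ± 0.38 in control animals (95% interval -1.14 to 0.35, adjusted p = 0.670). The libraries overlapped between IM deleted and NCM deleted, whereas those of IM control all lay below those of NCM control.

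**Figure D2:**
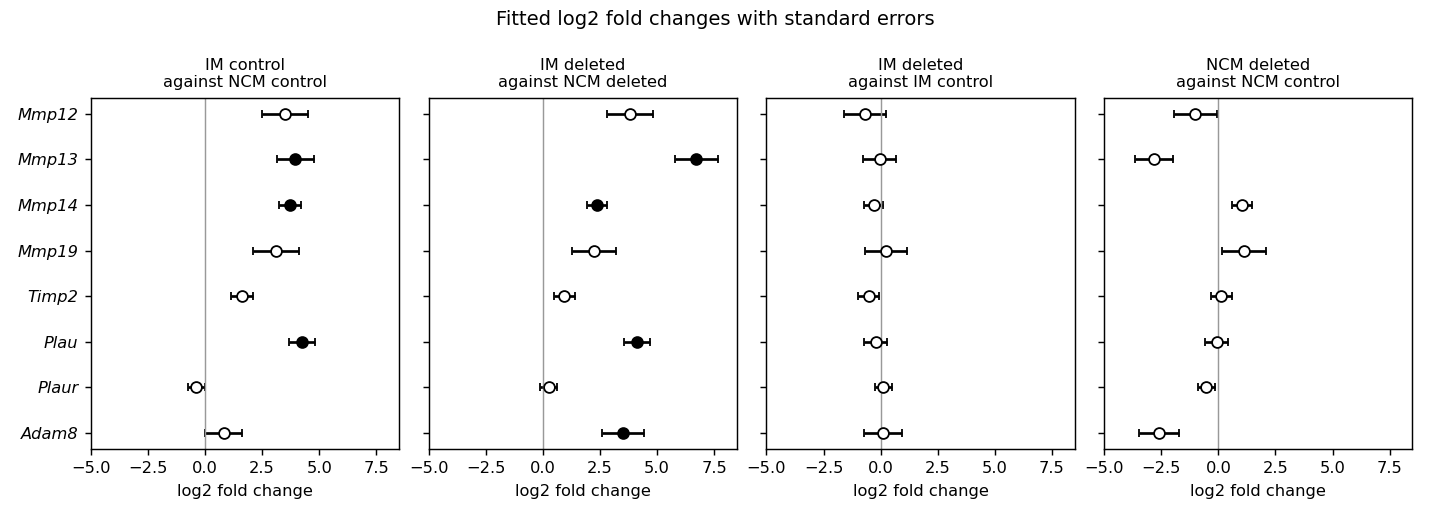
Log2 fold change of the 8 tested members in 4 comparisons, with bars for the standard error (SE) on each side. Filled points passed the adjusted p threshold of 0.05. Filled points lie only in the comparisons between cell types, for Plau, Mmp13 and Mmp14 in control animals and for the same 3 genes and Adam8 in deleted animals, and Timp1 was not tested.

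The ratio of Plau to Plaur counts within a library, which does not depend on library size, set the cell types apart. It was 0.586, 1.08 and 2.11 in IM deleted and 1.79, 1.81 and 0.945 in IM control, against 0.0831, 0.0483 and 0.162 in NCM deleted and 0.0656, 0.0399 and 0.0787 in NCM control. The lowest IM value was above the highest NCM value, while the genotypes overlapped within each cell type. Mmp14 over Timp2 was 0.197 to 0.428 in IM deleted and 0.230 to 0.252 in IM control, against 0.0776 to 0.125 in NCM deleted and 0.0425 to 0.129 in NCM control. These are ratios of counts and not of molecules, since the genes differ in length.

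**Figure D3:**
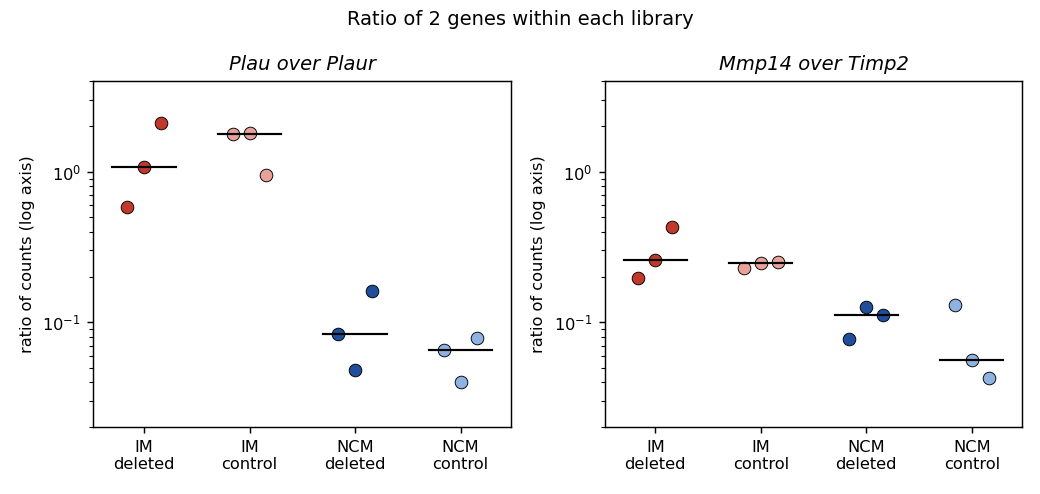
Ratio of counts of Plau to Plaur and of Mmp14 to Timp2 in each library, on log axes, with a line at each group's median. The IM libraries lie between 0.586 and 2.11 for Plau over Plaur and the NCM libraries between 0.0399 and 0.162.

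Levels were compared between genes as CPM per kilobase of the longest coding transcript in GENCODE M21. In IM deleted the order was Plaur with 131 ± 57.6, Plau with 102 ± 77.1, Timp2 with 84.2 ± 9.45 and Mmp12 with 61.8 ± 26.7, and in IM control Timp2 with 122 ± 4.57, Plaur with 120.3 ± 12.7, Plau with 119 ± 46.3 and Mmp12 with 98.8 ± 23.3. Neighbours in these orders differed by less than the larger of their SDs. The place of Mmp12 depends on its transcript, since its coding transcripts run from 1185 to 3607 bases, and in IM control it would have 301 CPM per kilobase on the shortest. Plaur led in NCM as well, with 110.0 ± 57.1 in NCM deleted and 158 ± 27.7 in NCM control, above Timp2 with 43.8 ± 19.98 in NCM deleted and 40.1 ± 26.7 in NCM control. The other 7 members stayed at or below 8.80 CPM per kilobase in NCM.

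In interstitial macrophages none of the 8 tested members passed the test for Hif1a deletion. By edgeR 0 of 8 passed, 0 had an unadjusted p under 0.05 and DESeq2 called 0, while 0.288% of all genes tested passed in either direction (0.239% higher, 0.0491% lower) and 9.84% had an unadjusted p under 0.05. The members' median log2 fold change was -0.13, beside 0.07 over all genes. Timp2 was the one member whose libraries did not overlap, lower in IM deleted than in IM control (log2 -0.53 ± 0.47, adjusted p = 0.885), and 13.4% of all genes were lower and 16.2% higher in that way. Interstitial macrophage markers were lower in the same libraries, with sums of 10516 to 12801 CPM in IM deleted and 15643 to 16047 in IM control, and their part in the Timp2 difference was not tested. Non-exonic shares did not overlap between IM deleted and IM control either. With that share as a covariate the log2 fold change of Timp2 was 1.01 (edgeR adjusted p = 0.672). Mmp12 averaged 223 ± 96.1 CPM in IM deleted and 356 ± 83.9 in IM control (log2 -0.68 ± 0.91, adjusted p = 0.974). The widest 95% interval, that of Mmp19, ran from -1.57 to 2.05, and the narrowest, that of Plaur, from -0.62 to 0.86 on the log2 scale. Library IM661 was the highest of the IM deleted libraries for Mmp12, Mmp13, Mmp14, Plau and Adam8 and the lowest for Timp2.

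In nonclassical monocytes, Mmp13 and Adam8 had lower values in every deleted library than in any control library. Mmp13 averaged 1.21 ± 2.101 CPM in NCM deleted and 9.85 ± 1.27 in NCM control (log2 -2.81 ± 0.84, edgeR adjusted p = 0.119). Adam8 averaged 3.29 ± 3.47 CPM in NCM deleted and 20.3 ± 3.67 in NCM control (log2 -2.59 ± 0.88, adjusted p = 0.153). Neither passed, and by edgeR 0 of 8 members did, where 0.421% of all genes passed in either direction (0.0842% higher, 0.337% lower). An unadjusted p under 0.05 was found for 3 of 8 (16.1% of all genes), namely Mmp13, Adam8 and Mmp14, and 11.4% of all genes were lower and 5.9% higher without overlap.

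Each of these 2 genes passed under an alternative setting. DESeq2 called Adam8 (log2 -2.46, adjusted p = 0.0374, range 0.0374 to 0.702 over 18 alternatives). Mmp13 was called with the non-exonic share as covariate (log2 -3.21, adjusted p = 0.0286, range 0.00123 to 0.8001). It was also called on leaving out RM661 (adjusted p = 0.00123), but RM661 was the one NCM deleted library with any of its reads, so that arm then stood at 0 counts and the call follows from which library was left out. Markers moved along with the groups: nonclassical monocyte markers summed to 3947 to 7865 CPM in NCM deleted and 9304 to 15205 in NCM control, interstitial macrophage markers to 1006 to 1655 in NCM deleted and 1835 to 3247 in NCM control, and the endothelial sums given above were higher in deleted libraries. Their part in these 2 differences was not tested.

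Mmp14 averaged 17.3 ± 9.35 CPM in NCM deleted and 8.35 ± 3.90 in NCM control, with overlapping libraries (log2 1.05 ± 0.44, edgeR adjusted p = 0.249). Its highest value, 27.8 CPM, came from RM661, which also had the highest endothelial marker sum, 7349 CPM, and fibroblast and smooth muscle markers summed to 177 to 506 CPM in NCM deleted and 98.0 to 223 in NCM control; their part was not tested. The remaining tested members overlapped between NCM deleted and NCM control, with log2 fold changes of -1.005 for Mmp12, -0.52 for Plaur, -0.08 for Plau, 0.13 for Timp2 and 1.11 for Mmp19, none past the threshold. Library RM649 had 0 counts of Mmp13, Mmp19 and Adam8 and 1 count of Mmp12, while it held Timp2 at 128 and Plaur at 252 CPM. The median over the 8 members was -0.30, beside -0.10 over all genes.

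Whether the deletion effect differed between the cell types was tested directly as IM effect minus NCM effect. By edgeR 0 of 8 members passed and DESeq2 called 0, where 0.0% of all genes tested passed and 8.92% had an unadjusted p under 0.05. An unadjusted p under 0.05 was found for 3 members, Mmp13 (log2 difference 2.77 ± 1.09, adjusted p = 0.513), Adam8 (2.70 ± 1.18, adjusted p = 0.549) and Mmp14 (-1.35 ± 0.61, adjusted p = 0.554). Mmp13 passed without RM661 (adjusted p = 0.0112, range 0.0112 to 0.945 over 17 alternatives), which again leaves NCM deleted with 0 counts of this gene, so that this call follows from the library left out. The contrasts between cell types and between genotypes share libraries, so they are not independent of each other.

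Mmp13 and Mmp12 open a run of 10 metalloproteinase genes on chromosome 9, in the order Mmp13, Mmp12, Mmp1b, Mmp3, Mmp1a, Mmp10, Mmp8, Mmp27, Mmp20 and Mmp7, with 61050 bases between the end of Mmp13 and the start of Mmp12. Mmp12 had 5113 counts over the 3 IM deleted libraries and 14077 over IM control, against 363 in NCM deleted and 770 in NCM control. Mmp13 had 3383 in IM deleted and 6095 in IM control, against 41 in NCM deleted and 227 in NCM control. Of the others, Mmp8, the collagenase-2 gene, came next with 554 counts in IM deleted and 2465 in IM control, against 132 in each NCM group. Mmp3, Mmp10 and Mmp27 had at most 52 counts in any group, and Mmp1a, Mmp20 and Mmp7 had none in any library. These sums are not scaled for depth. IM control libraries held 13333039 to 14099509 gene counts, and the libraries of the other groups 5332600 to 11169706. In CPM, Mmp13 averaged 147 in IM deleted and 152 in IM control, and Mmp12 averaged 223 in IM deleted and 356 in IM control.

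**Figure D4:**
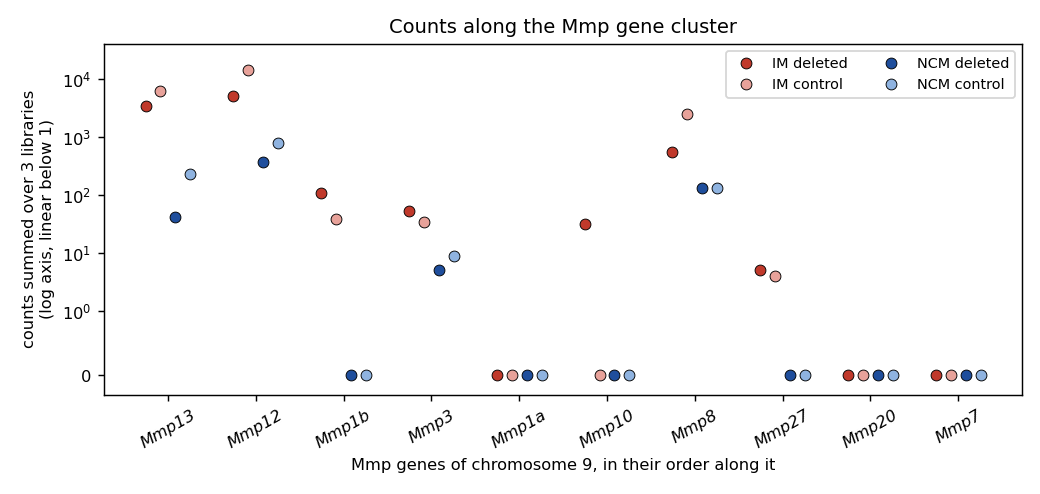
Counts summed over the 3 libraries of each group for the 10 metalloproteinase genes of the chromosome 9 run, in their order along it, on a log-like axis that includes 0. Mmp12, Mmp13 and Mmp8 hold nearly all the counts, and the IM groups lie above the NCM groups for these 3 genes. Counts are not scaled for depth, which was highest in IM control.

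Other genes of matrix proteolysis followed in part. A list of 59 further genes of the pathway had 58 in the files and 43 past the filter. In IM control against NCM control 5 of 43 were higher and 0 lower by edgeR, against 2.81% higher and 4.67% lower over all genes tested, with a median log2 fold change of 0.78 beside 0.06 over all genes. Adam19, a membrane metalloprotease-disintegrin, averaged 337 ± 7.62 CPM in IM control and 20.4 ± 10.6 in NCM control (16.4-fold, adjusted p = 0.000130). Ctsk, the collagen-cutting cathepsin K, averaged 49.1 ± 1.04 CPM in IM control and 4.74 ± 0.0262 in NCM control (10.3-fold, adjusted p = 0.00163). Cathepsin S (Ctss, 2.58-fold) and Furin (2.15-fold), the convertase that activates proMMP14, also passed.

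In IM deleted against NCM deleted 5 of 43 were higher and 0 lower, against 3.22% higher and 1.35% lower over all genes tested, with a median of 0.29 beside 0.14 over all genes. Adam19 averaged 400.2 ± 56.5 CPM in IM deleted and 28.9 ± 13.6 in NCM deleted (13.8-fold, adjusted p = 0.000134). Furin (3.81-fold), Ctsk (4.04-fold), Ctss (3.12-fold) and the sheddase gene Adam9 (2.55-fold) also passed. For the deletion effect, 0 of 43 passed by edgeR in IM, in NCM or for the difference of effects. In IM 5 of 43 had an unadjusted p under 0.05, against 9.84% of all genes, and DESeq2 called 3. In NCM 11 of 43 did, against 16.1% of all genes, and DESeq2 called 7. For the difference of effects 6 of 43 did, against 8.92% of all genes, and DESeq2 called 0. Plg, which encodes plasminogen itself and is made mainly in liver, had 0 counts in all libraries.

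The genes most like a member in pattern were sought as those with the smallest root mean square difference of gene-centred log2 CPM over the 12 libraries, among 12338 genes, for the 4 tested members with the highest mean CPM. Timp2 was nearest to Emp1 (0.230) and Nucb2 (0.308), with a spread of its own of 1.02 on that scale. Plaur was nearest to Arpc1b (0.295) and Bop1 (0.301), with a spread of 0.522. Mmp12 was nearest to Clec5a (0.652) and Lrp12 (0.745), with a spread of 2.90, and Plau to Slc36a2 (0.710) and Olfr109 (0.733), with a spread of 2.13. Slc36a2 averaged 5.05 CPM in IM deleted and 7.71 in IM control, against 0.148 in NCM deleted and 0.040 in NCM control. Olfr109 averaged 3.43 CPM in IM deleted and 1.41 in IM control, against 0 in both NCM groups. Their likeness to Plau in NCM therefore rests on values at or near 0. Clec5a, a myeloid activating receptor gene, averaged 55.0 CPM in IM deleted and 104 in IM control, against 4.24 in NCM deleted and 11.1 in NCM control.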

How the data were processed

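The authors deposited unnormalized read counts for each gene in a separate file per library, with 26608 gene rows and 5 summary rows that held 45.0 to 74.1% of reads and were left out. Per the labels' protocols, the SMARTer pico kit, which keeps strand and total RNA, was used. The genome was GRCm38 and the tools were HTSeq 0.6.0, TopHat2 2.1.1 and cutadapt 1.12, per the submitters' processing notes. The annotation, the strand setting and the treatment of multiply aligned reads were not given in the sources used here. Depth was 5332600 to 14099509 gene counts; no 2 libraries were identical.

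Counts were fitted in R 4.3.3 with edgeR 4.0.16 (TMM, filterByExpr with minimum count 10, robust quasi-likelihood fit of 4 group means to 12 libraries, Benjamini-Hochberg adjustment over 14254 genes, threshold 0.05), tested on simulated data. SE is the absolute log2 fold change over the square root of F. Ranges of ± 1.96 SE are approximate and narrower than the F test with few libraries would give. Alternatives were RLE factors, no filter, 6 libraries, lane, non-exonic share, replicate block, DESeq2 1.42.0 and leaving out each library. Coordinates and lengths come from GENCODE M21, promoters from RefSeq. All members were named; pathway genes past the threshold were named, at most 6 per direction, and 2 like genes for each of 4 members; 1 pathway gene is counted but not reported here. The members and lists were chosen with earlier results of these data known. Floors of 3 counts cover counting error only.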

Additional observations from a re-analysis of the deposited data

How the results depend on the processing

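Between cell types, the number of members past the threshold in IM control against NCM control was 3, and it was 2 with no filter, 5 with RLE factors, 5 with only the 6 libraries compared, 6 with DESeq2, 0 with the non-exonic share as covariate and 3 to 5 on leaving out 1 library (5 without RM649 and 5 without RM650). In IM deleted against NCM deleted it was 4, and 2 with only the 6 libraries compared and 3 to 5 on leaving out 1 library. For NCM deleted against NCM control it was 0, and 1 with the non-exonic share, 1 with DESeq2 and 0 to 1 on leaving out 1 library. The difference of effects gave 0, and 0 to 1 on leaving out 1 library (1 without RM661, where NCM deleted then had 0 counts of Mmp13). IM deleted against IM control gave 0 under all alternatives run. Of the 43 other pathway genes, 5 passed in IM control against NCM control (11 with only the 6 libraries, 9 with DESeq2, 1 with the share, 3 to 8 on leaving out 1 library), 5 in IM deleted against NCM deleted (2 with only the 6 libraries, 9 with DESeq2, 3 to 7 on leaving out 1 library), 0 in IM deleted against IM control (6 with only the 6 libraries, 3 with DESeq2, 0 to 2 on leaving out 1 library) and 0 in NCM deleted against NCM control (1 with no filter, 3 with the share, 7 with DESeq2, 0 to 3 on leaving out 1 library).

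Same-numbered IM and NCM libraries had correlations of -0.0654 to 0.0809 in their deviations from the group means. Differently numbered libraries of the same genotype had -0.102 to 0.0874. With 3 libraries a group these values cannot show whether same-numbered libraries share an animal. With the replicate block, which leaves 3 residual degrees of freedom, 2 members passed in IM control against NCM control (Mmp14 and Plau, with Mmp13 at adjusted p = 0.0707, and 1 pathway gene), 4 in IM deleted against NCM deleted and 0 for the difference of effects. The genotypes share no numbers, so no block was possible there.

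Log2 fold changes that turned sign were not past the threshold on either side, and the cause was not tested. With the non-exonic share as covariate, IM deleted against IM control was 3.28 for Mmp13, 1.29 for Mmp14, -0.18 for Mmp19, 1.01 for Timp2, 0.56 for Plau and -0.88 for Plaur; with lane as covariate it was -0.0093 for Mmp19 and -0.17 for Plaur. Under the same share, the difference of effects was 0.55 for Timp2, 0.45 for Plau and -0.052 for Plaur, and IM control against NCM control was 0.50 for Plaur and -1.37 for Adam8. Plau in NCM deleted against NCM control was 0.076 with RLE factors, 0.033 with no filter, 0.047 with only the 6 libraries, 0.11 with the share and 0.077 with DESeq2. Leaving out 1 library gave ranges that cross 0 in IM deleted against IM control for Mmp13 (-0.55 to 0.17), Mmp19 (-0.024 to 0.49), Plau (-1.07 to 0.13), Plaur (-0.20 to 0.43) and Adam8 (-0.45 to 0.32), in NCM deleted against NCM control for Mmp12 (-2.74 to 0.16), Mmp19 (-0.36 to 1.68), Timp2 (-0.33 to 0.52) and Plau (-0.48 to 0.19), in the difference of effects for Mmp12 (-0.84 to 2.02), Mmp19 (-1.48 to 0.56) and Plau (-1.10 to 0.24), and in IM deleted against NCM deleted for Plaur (-0.080 to 0.68). RLE factors moved the median of all genes to 0.04, against -0.10 with TMM, for NCM deleted against NCM control, and to 0.04, against 0.19, for the difference of effects. With 3 libraries a group, small differences of low genes may have gone undetected at this depth, and Timp1 was not tested.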

Other observations

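Metalloproteinase genes outside the members that are known from neutrophils were present in IM libraries. These values were picked after they were seen. Mmp8 averaged 23.9 ± 7.52 CPM in IM deleted and 62.3 ± 10.8 in IM control, against 5.81 ± 7.59 in NCM deleted and 5.95 ± 4.93 in NCM control, and passed the test in none of the 5 comparisons (edgeR adjusted p = 0.0886 for IM control against NCM control and 0.823 for IM deleted against IM control). DESeq2 called it in IM control against NCM control, and the fit of only the 6 libraries compared called it in both of these contrasts. The 9 neutrophil markers summed to 62.8 to 70.9 CPM in IM deleted and 33.7 to 43.8 in IM control, and to 57.0 to 124 in NCM deleted and 93.7 to 125 in NCM control. Of the 9, 6 had counts in IM libraries, and Ly6g, Camp and Retnlg had 0 in all of these. Their part in the Mmp8 values was not tested.

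Timp3, an inhibitor of metalloproteinases that binds matrix, had higher values in each NCM deleted library than in any NCM control library. It had 731, 565 and 1291 CPM in NCM deleted and 183, 196 and 488 CPM in NCM control (edgeR adjusted p = 0.166). It did not pass by edgeR and was called by DESeq2. This gene too was picked after its values were seen. Of the 43 tested pathway genes, 4 were higher and 4 lower without overlap in this comparison. Over all genes tested, 5.9% were higher and 11.4% lower in that way. Endothelial marker sums were higher in the same NCM deleted libraries, and their part in these values was not tested.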
